A study of Mus musculus with 10 samples.

Results

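Notch signalling was followed through 10 genes in mouse embryonic stem cells: the receptors Notch1, Notch2 and Notch3, the ligands Dll1, Dll3, Jag1 and Jag2, and the target genes Hes1, Hes5 and Hey1. They were taken by gene symbol from a table of 52636 gene identifiers, and each of the 10 symbols matched 1 identifier. The cells were of the E14 line, a male-derived mouse line in wide use for differentiation studies. Both groups had been grown with LIF and inhibitors of MEK and GSK3 and were then moved to medium without these and with retinoic acid at a labelled dose of 2 µM, for 24 h before RNA-seq. One group was unedited (WT) and the other lacked a DNA element bound by CTCF, an organiser of chromatin loops, which the study's title places among enhancers that contact the HoxA gene cluster (CBE-KO). Each group had 2 libraries, and every cell in the comparison had received retinoic acid, so the data hold no untreated cells. The labels call the libraries biological replicates and do not say whether the CBE-KO cells came from a single clone.

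Notch is a receptor cut in stages after a ligand on a neighbouring cell binds it. The last cut, by γ-secretase, frees the intracellular part, which joins the DNA-binding protein RBPJ and a Mastermind coactivator in the nucleus and switches on Hes and Hey genes. Hes and Hey proteins are repressors that hold back differentiation genes, and in embryonic stem cells the pathway is known for favouring neural entry once self-renewal signals are withdrawn.

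The libraries held 14108038 to 15632960 counts, so that 3 counts, taken here as the floor of measurement, was worth 0.184 to 0.218 CPM (the count relative to the library total, after the scaling named below). The stem cell genes Pou5f1 and Nanog had between 11137 and 15841 counts in every library. The summed counts of 4 Y-linked genes were 12 and 10 in WT and 2105 and 1875 in CBE-KO, so the groups also differed in a feature that the labels do not mention. Whether both groups came from the same E14 subline is not given in the sources used here, and a difference of that kind and the deletion cannot be told apart in any value below. Of 16005 genes that passed the expression filter, 6895 differed between the groups in edgeR's quasi-likelihood test (adjusted p under 0.05), which is 43.1% of them. Genes higher in CBE-KO made up 21.6% and genes lower in CBE-KO 21.5%.

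Of the 10 Notch genes, 9 passed the expression filter and 5 of these were higher in CBE-KO: the receptors Notch2 and Notch3, the ligands Jag1 and Jag2, and the target Hes1. None was lower. DESeq2 passed 4 of them, all but Jag1, beside 12.8% called higher over all genes. The DESeq2 adjusted p was 0.00305 for Jag2, 0.0207 for Hes1, 0.0345 for Notch3 and 0.0491 for Notch2. In edgeR the 5 of 9 (55.6%) stand beside 43.1% called in either direction and 21.6% called higher over all tested genes. Both CBE-KO libraries lay above both WT libraries for the same 5 of the 9, beside 36.4% of all tested genes. The median log2 fold change of the 9 was 0.30, against 0.01 for all tested genes. The rises were modest, from 1.23-fold to 1.60-fold. The samples were bulk RNA, in which a change in the number of cells expressing a gene and a change in RNA per cell cannot be told apart. All levels below are CPM with TMM scaling (edgeR's trimmed mean of M-values), and levels are compared within a gene only, since transcript lengths were not used here.

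**Figure D1:**
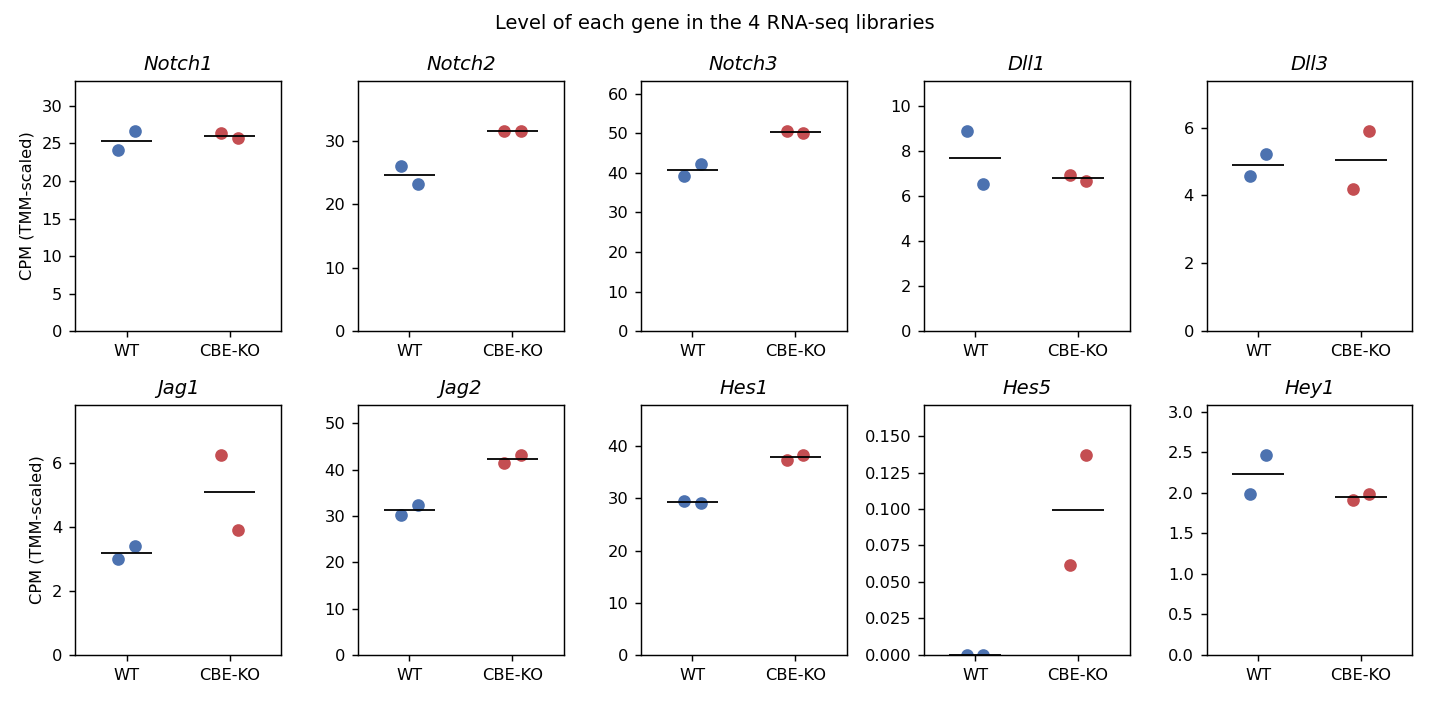
Level of each of the 10 genes (y axes, TMM-scaled CPM, each starting at 0) in the 2 WT (blue) and 2 CBE-KO (red) libraries, with 1 point per library and a line at the group mean. Notch2, Notch3, Jag1, Jag2 and Hes1 have both CBE-KO points above both WT points, and the Hes5 axis covers no more than 2 counts.

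The receptors did not all move. Notch3 (ENSMUSG00000038146, chromosome 17, 32120820 to 32166896), a receptor best known from vascular smooth muscle, measured 39.3 and 42.2 CPM in WT and 50.6 and 50.0 CPM in CBE-KO. Both CBE-KO libraries were above both WT libraries, and the gap between groups was wider than the gap within either. The means were 40.8 ± 2.09 and 50.3 ± 0.388 CPM (SD, n = 2 each), which is a log2 fold change of 0.30 ± 0.07 SE (adjusted p = 0.00266, edgeR). Notch2 (ENSMUSG00000027878, chromosome 3, 98013538 to 98150367), a widely expressed receptor, measured 26.0 and 23.2 CPM in WT and 31.5 CPM in each CBE-KO library. The groups did not overlap, and nearly all of the spread was between the WT libraries. The means were 24.6 ± 1.94 and 31.5 ± 0.00261 CPM (SD, n = 2 each), and the log2 fold change was 0.36 ± 0.09 SE (adjusted p = 0.00370, edgeR). Without WT replicate 2, the lower of the WT libraries, the change was 0.27 and just missed the threshold (edgeR adjusted p = 0.0504).

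Notch1 (ENSMUSG00000026923, chromosome 2, 26457902 to 26503822), the receptor most studied in neural and blood development, measured 24.1 and 26.6 CPM in WT and 26.4 and 25.7 CPM in CBE-KO. Both CBE-KO libraries fell between the WT libraries. Its log2 fold change was 0.04 ± 0.09 SE (adjusted p = 0.778, edgeR), with a 95% confidence interval from -0.16 to 0.23. The interval leaves room for a change of up to 1.17-fold in the upward direction. Whether the change of Notch1 differed from those of Notch2 and Notch3 was not tested. RefSeq places noncoding genes over Notch1, Notch2 and Notch3. How strand was used in counting is not given in the sources used here, so some of the receptors' counts may belong to these noncoding genes.

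Promoter sequence was read from RefSeq (GRCm38.p6) for 8 of the 10 genes, with 250 bases before and 50 after each annotated start. The 250 bases before the start of Notch3, at chr17:32166891-32167140 on the minus strand, reach a few bases into the gene's full span and are shown because Notch3 rose and holds matches to the N box, the motif that Hes repressors are known to bind. Capitals mark CACNAG on either strand.

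Notch3: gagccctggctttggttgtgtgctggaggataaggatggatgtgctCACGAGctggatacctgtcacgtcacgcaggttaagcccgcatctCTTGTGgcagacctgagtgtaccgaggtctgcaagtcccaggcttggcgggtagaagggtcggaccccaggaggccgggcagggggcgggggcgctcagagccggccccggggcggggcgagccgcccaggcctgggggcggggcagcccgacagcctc

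The N box matches begin at positions -204 and -159, counted from the start as +1. Within the full 300-base windows CACNAG was found in the promoters of 4 of the 8 genes (Notch1, Notch2, Notch3 and Dll1). It was also found in 42.5% of all 32851 RefSeq promoter windows of that length, so such a match is common. The 4 with a match include 2 that rose (Notch2 and Notch3) and 2 that did not pass the test.

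Among the ligands, the Jagged genes were higher in CBE-KO and the Delta-like genes did not pass the test. Jag2 (ENSMUSG00000002799, chromosome 12, 112907803 to 112929812) encodes a transmembrane ligand that activates receptors on adjacent cells. It measured 30.3 and 32.3 CPM in WT and 41.5 and 43.2 CPM in CBE-KO. The CBE-KO libraries lay well above the WT libraries, and the libraries of a group lay close together. The means were 31.3 ± 1.43 and 42.4 ± 1.20 CPM (SD, n = 2 each), which is a log2 fold change of 0.44 ± 0.08 SE (adjusted p = 0.000213, edgeR). Among the 9 tested genes this was the lowest adjusted p, and 19.4% of all tested genes had a higher log2 fold change than Jag2. The 250 bases before its RefSeq start, at chr12:112929496-112929745 on the minus strand, are shown as those of the riser with the lowest adjusted p. This start is that of a transcript inside the gene's full span, so the window lies within the annotated gene. G and C make up 87.2% of them, and neither CACNAG nor the RBPJ core TGGGAA was found in the window.

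Jag2: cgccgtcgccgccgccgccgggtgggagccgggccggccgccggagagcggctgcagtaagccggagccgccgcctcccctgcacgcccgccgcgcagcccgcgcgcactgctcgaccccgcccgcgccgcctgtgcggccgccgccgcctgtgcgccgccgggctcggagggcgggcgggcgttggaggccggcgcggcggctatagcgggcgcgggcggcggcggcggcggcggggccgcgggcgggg

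Jag1 (ENSMUSG00000027276, chromosome 2, 137081451 to 137116520), a related ligand with roles in vessels, ear and liver, was measured from 44 and 47 counts in WT, against 102 and 57 in CBE-KO. These were 3.01 and 3.41 CPM in WT and 6.27 and 3.91 CPM in CBE-KO. The groups did not overlap, but the CBE-KO libraries were far apart, and CBE-KO replicate 2 was close to WT. The means were 3.21 ± 0.286 and 5.09 ± 1.67 CPM (SD, n = 2 each), which is a log2 fold change of 0.68 ± 0.25 SE (adjusted p = 0.0396, edgeR). Jag1 thus had the largest change of the 9 and the least secure one. Without CBE-KO replicate 1 the change was 0.29 (edgeR adjusted p = 0.555), without WT replicate 1 it was 0.58 (edgeR adjusted p = 0.0844), and DESeq2 gave 0.66 with an adjusted p of 0.182.

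The 3 genes whose profile over the 4 libraries was most like that of Jag1 were Arhgef38, 2610002M06Rik and Efcab11. Likeness was measured over 11102 tested genes with a mean of at least 5 CPM, as the root mean square difference of log2 CPM centred on each gene's mean. It came to 0.0760, 0.0760 and 0.0761 for the 3. Being picked for likeness to Jag1, they share its pattern by choice and are no separate evidence for it. They too were higher in CBE-KO replicate 1 than in CBE-KO replicate 2. For Arhgef38 this was 11.9 against 7.34 CPM, with 6.08 and 5.88 CPM in WT.

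Dll1 (ENSMUSG00000014773, chromosome 17, 15367354 to 15376932), the Delta-like ligand of neurogenesis and somite formation, measured 8.88 and 6.53 CPM in WT and 6.95 and 6.65 CPM in CBE-KO. The WT libraries enclosed the CBE-KO libraries. Its log2 fold change was -0.18 ± 0.19 SE (adjusted p = 0.462, edgeR), with a 95% confidence interval from -0.57 to 0.21. Dll3 (ENSMUSG00000003436, chromosome 7, 28293555 to 28301785), a divergent family member that does not activate Notch on neighbouring cells, measured 4.58 and 5.23 CPM in WT and 4.18 and 5.90 CPM in CBE-KO. Here the CBE-KO libraries enclosed the WT libraries. The log2 fold change was 0.04 ± 0.22 SE (adjusted p = 0.919, edgeR), with a 95% confidence interval from -0.43 to 0.50. At 67 to 130 counts per library, these intervals include changes as large as that of Jag2 downward for Dll1 and upward for Dll3. Whether Jagged and Delta-like genes differed in their change was not tested.

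**Figure D2:**
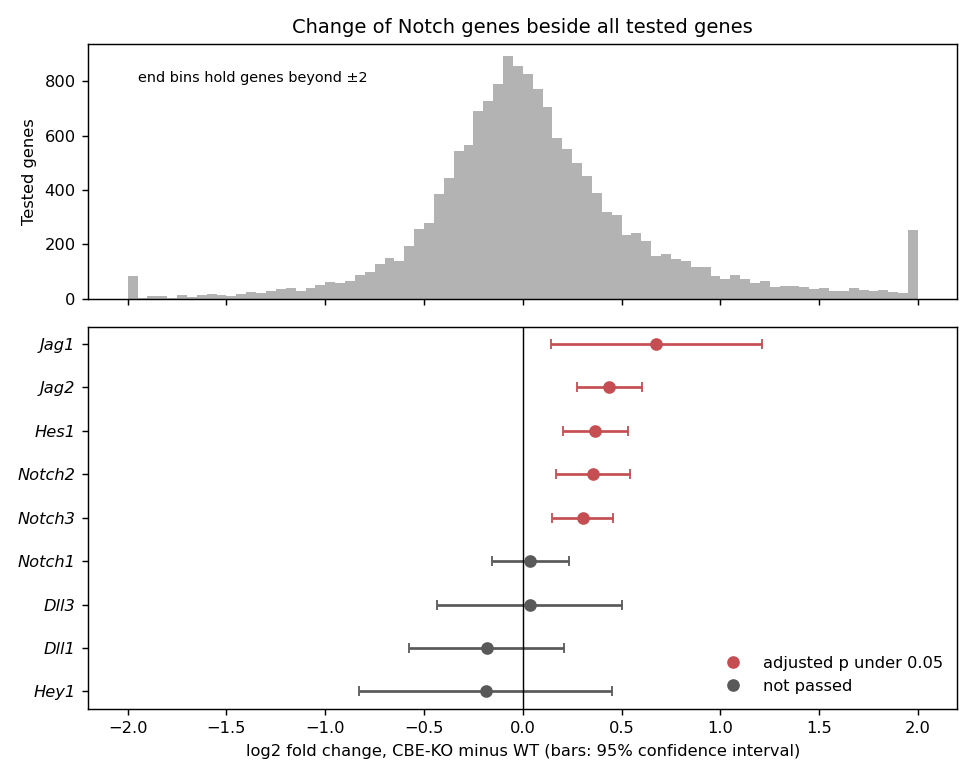
The upper panel counts all 16005 tested genes by log2 fold change (CBE-KO minus WT). The lower panel gives the 9 tested Notch genes on the same axis with 95% confidence intervals, the 5 that passed in red between 0.30 and 0.68, inside the right shoulder of the distribution of all genes.

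Of the target genes, Hes1 was higher in CBE-KO, Hey1 did not pass and Hes5 was at the floor. Hes1 (ENSMUSG00000022528, chromosome 16, 30065357 to 30067796) encodes the repressor whose level oscillates in embryonic stem cells. It measured 29.5 and 29.1 CPM in WT and 37.3 and 38.3 CPM in CBE-KO. Each group was tight and the groups were far apart relative to that spread. The means were 29.3 ± 0.293 and 37.8 ± 0.716 CPM (SD, n = 2 each), which is a log2 fold change of 0.37 ± 0.08 SE (adjusted p = 0.00110, edgeR), or 1.29-fold. Its log2 fold change was exceeded by 22.4% of all tested genes.

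Hey1 (ENSMUSG00000040289, chromosome 3, 8663359 to 8667038), a related repressor known from heart and vessels, had 29 and 34 counts in WT, against 31 and 29 in CBE-KO. These were 1.98 and 2.47 CPM in WT and 1.91 and 1.99 CPM in CBE-KO, and the groups overlapped. The log2 fold change was -0.19 ± 0.30 SE (adjusted p = 0.654, edgeR), and its 95% confidence interval, from -0.83 to 0.45, includes the change seen for Hes1. A RefSeq protein-coding model overlaps Hey1, so its reads may be shared.

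Hes5 (ENSMUSG00000048001, chromosome 4, 154960626 to 154962372), a Notch target typical of neural progenitors, had 0 and 0 counts in WT, against 1 and 2 in CBE-KO. All 4 libraries were at or below the floor of 3 counts, so no level and no fold change can be given. A count of 0 allows up to 0.205 and 0.218 CPM in the WT libraries, which covers counting error only, since reads lacking molecular identifiers may be copies of the same molecule. Its promoter is shown because Hes5 was the only one of the 8 genes with a match to the core of the RBPJ motif. Capitals mark TGGGAA on either strand in the 250 bases before its RefSeq start, at chr4:154960673-154960922 on the plus strand.

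Hes5: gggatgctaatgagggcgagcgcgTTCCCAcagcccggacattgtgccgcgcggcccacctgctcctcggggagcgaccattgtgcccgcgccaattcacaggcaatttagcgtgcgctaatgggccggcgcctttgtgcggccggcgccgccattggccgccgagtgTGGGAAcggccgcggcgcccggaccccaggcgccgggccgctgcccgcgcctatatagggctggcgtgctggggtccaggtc

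The matches begin at positions -226 and -82, and each is also a match to the longer GTGGGAA, which contains the core. TGGGAA was present in 25.6% of all RefSeq promoter windows and at least 2 matches in 3.79%. The longer motif was present in 6.38%, and at least 2 matches in 0.256%. The Hes5 start used is that of a RefSeq transcript inside the gene's full span. Hes1 and Hey1 had no promoter entry in the table.

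**Figure D3:**
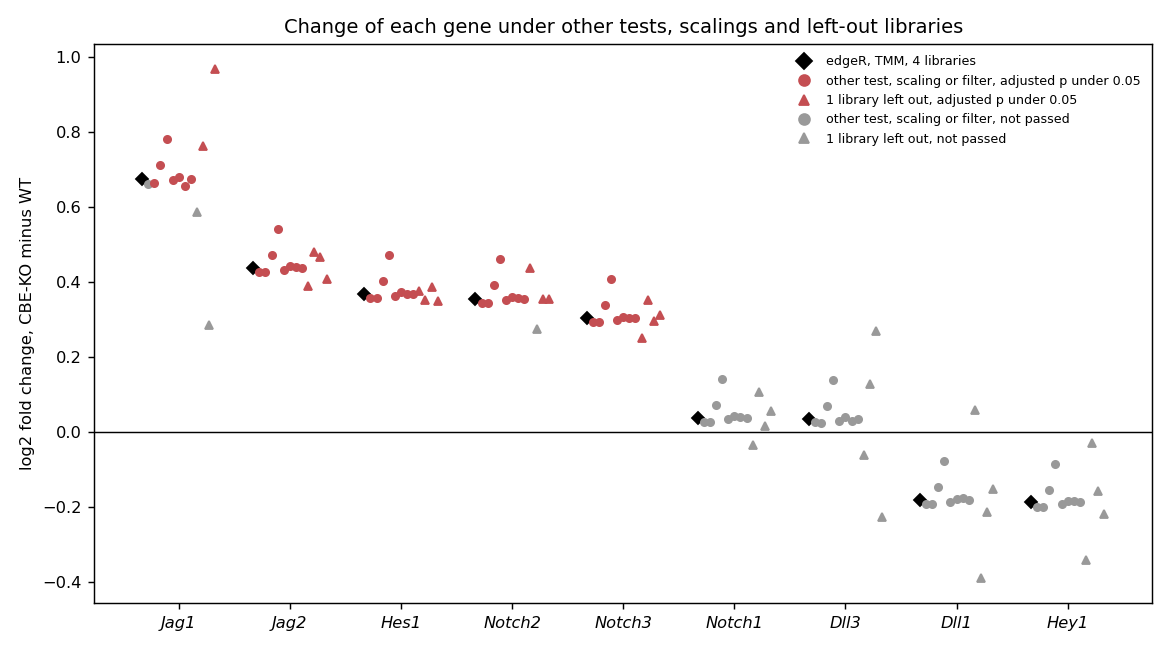
Log2 fold change (y axis, CBE-KO minus WT) of the 9 tested genes in edgeR with TMM scaling (black diamonds), under 8 other tests, scalings, filters or designs (circles) and with 1 library left out (triangles), in red where the adjusted p was under 0.05. Jag2, Hes1 and Notch3 stay red throughout, Notch2 turns grey once, and Jag1 ranges from 0.29 to 0.97.

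The remaining genes of the pathway were grouped by role into 9 lists, which hold 92 genes besides the 10, with Lfng, Hes7 and Nrarp each in 2 lists. Of these, 73 were tested, 21 were higher and 15 lower in CBE-KO, and 37 did not pass. The 36 called are 49.3% of those tested, beside 43.1% of all tested genes, and the median log2 fold change was 0.08. With library totals alone as the scaling, which moved the median of all genes to 0.11, the split was 32 higher and 10 lower. DESeq2 called 20, 12 higher and 8 lower, beside 28.6% of all genes.

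The fourth receptor and the DNA-binding protein of the pathway were both lower in CBE-KO. Notch4 (ENSMUSG00000015468), known best from endothelium, measured 32.7 and 34.8 CPM in WT and 18.6 and 19.6 CPM in CBE-KO. Each CBE-KO library was far below each WT library, and the log2 fold change was -0.82 ± 0.09 SE (adjusted p = 1.34e-06, edgeR). Rbpj (ENSMUSG00000039191), through which all Notch receptors act on DNA, measured 419 and 445 CPM in WT and 262 and 258 CPM in CBE-KO. The groups were again far apart, with a log2 fold change of -0.73 ± 0.05 SE (adjusted p = 2.55e-09, edgeR). Both kept the call in each of the 12 other fits. Notch4 was the 1 gene of 3 tested that passed among 8 other receptors and ligands. This is 33.3% called, beside 43.1% of all tested genes called in either direction and 21.5% called lower. Dll4, the Delta-like ligand of sprouting vessels, had 2, 5, 2 and 1 counts in WT 1, WT 2, CBE-KO 1 and CBE-KO 2, and Dlk1 had none.

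In the nuclear activation complex, 2 of 7 tested genes were higher and 2 lower, which is 57.1% called beside the 43.1% of all tested genes. Besides Rbpj these were Maml3, a Mastermind coactivator, and the acetyltransferases Kat2b and Kat2a, the last named after its value was seen. Maml3 rose by a log2 fold change of 1.66 from 6 and 7 counts in WT to 22 and 23 in CBE-KO (edgeR adjusted p = 0.00740), but missed the threshold in DESeq2 (adjusted p = 0.0827), without WT replicate 1 (edgeR adjusted p = 0.0605) or without CBE-KO replicate 2 (edgeR adjusted p = 0.0710). Kat2b was higher by 0.26 and Kat2a lower by a log2 fold change of -0.21, the latter not past the threshold with library totals alone (edgeR adjusted p = 0.0931). Among 16 corepressors, all tested, 2 were higher and 6 lower. So 50.0% were called beside 43.1% of all tested genes, and 37.5% were lower beside 21.5%. Not all of the 6 are named below, and those left out belong to other families than the ones named. Ctbp2, a partner of the RBPJ repressor complex, went from 106 ± 1.26 to 58.4 ± 3.12 CPM (SD, n = 2 each), which is a log2 fold change of -0.87 ± 0.06 SE (adjusted p = 4.02e-09, edgeR). Tle4, of the Groucho family that Hes proteins recruit, fell by a log2 fold change of -0.56 (edgeR adjusted p = 1.64e-07), while its relative Tle1 rose by 0.47 (edgeR adjusted p = 7.70e-05). Tle3 and Tle2 of the same family, named after their values were seen, were also lower, at -0.28 (edgeR adjusted p = 0.000267) and -0.36 (edgeR adjusted p = 0.0499), and Tle2 did not pass in 8 of the 12 other fits, DESeq2 (adjusted p = 0.199) and each with 1 library left out (edgeR adjusted p from 0.0667 to 0.146) among them. The other gene that was higher, named after its value was seen, was the deacetylase gene Hdac2 at 0.16, which missed the threshold in DESeq2 (adjusted p = 0.0696) or without WT replicate 2, CBE-KO replicate 1 or CBE-KO replicate 2 (edgeR adjusted p = 0.0585, 0.0529 and 0.0844).

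Genes for receptor cleavage that passed were all higher in CBE-KO, and genes for receptor glycosylation that passed were all lower. Of 10 cleavage genes, all tested, 5 were higher and none lower, so 50.0% were called, near the 43.1% of all tested genes, of which 21.6% were higher and 21.5% lower. Furin, which makes the first cut during receptor maturation, rose by a log2 fold change of 0.38 (edgeR adjusted p = 0.00107). Ncstn, the substrate-binding subunit of γ-secretase, went from 50.5 ± 0.313 to 64.2 ± 1.78 CPM (SD, n = 2 each), which is a log2 fold change of 0.35 ± 0.07 SE (adjusted p = 0.000356, edgeR). Psen2, a catalytic subunit, rose by 0.57 (edgeR adjusted p = 0.00843) but did not pass in DESeq2 (adjusted p = 0.0702) or without CBE-KO replicate 1 (edgeR adjusted p = 0.0755). Adam10, the protease that makes the ligand-dependent cut, was named after its value was seen and was higher by 0.32 (edgeR adjusted p = 0.00290).

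Of 5 glycosylation genes, all tested, 3 were lower and none higher. This is 60.0% called, beside 43.1% of all tested genes called in either direction and 21.5% called lower. The 3 were the fringe genes Lfng, Mfng and Rfng, whose enzymes extend the sugars on Notch and alter its response to Delta-like and Jagged ligands. Lfng measured 5.54 and 4.57 CPM in WT and 3.07 and 3.29 CPM in CBE-KO, Mfng 8.54 and 9.87 against 6.27 and 6.86 CPM, and Rfng 36.8 and 32.2 against 29.3 and 29.4 CPM. In each the groups did not overlap, and the 3 were named because they passed the test. The share of all tested genes with both WT libraries above both CBE-KO libraries was not counted. In the other direction, with CBE-KO above WT, it was 36.4%, so groups of 2 often do not overlap. The log2 fold changes were -0.67 ± 0.23, -0.49 ± 0.17 and -0.23 ± 0.09 (SE), with edgeR adjusted p of 0.0239, 0.0276 and 0.0374. Each lay near the threshold, and none of the 3 passed in DESeq2 (adjusted p = 0.140, 0.135 and 0.169). With library totals alone Mfng and Rfng did not pass (edgeR adjusted p = 0.0760 and 0.244), nor did Rfng with upper-quartile scaling (edgeR adjusted p = 0.0712), though all 3 stayed lower in each of the 12 other fits. Without WT replicate 1, Lfng and Rfng missed the threshold (edgeR adjusted p = 0.147 and 0.381), and without WT replicate 2, Mfng did (0.135). Without CBE-KO replicate 1 all 3 missed it (0.120, 0.138 and 0.104), and without CBE-KO replicate 2, Lfng and Rfng did (0.0561 and 0.0824).

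Of 13 genes of endocytosis and turnover, all tested, 5 were higher and none lower. This is 38.5% called, beside 43.1% of all tested genes called in either direction and 21.6% called higher. The ubiquitin ligase gene Dtx3, of the Deltex family that binds Notch, went from 48.4 ± 5.00 to 68.2 ± 2.08 CPM (SD, n = 2 each), which is a log2 fold change of 0.50 ± 0.07 SE (adjusted p = 3.32e-05, edgeR). Dtx4 rose by 0.85 (edgeR adjusted p = 0.0139) and Neurl1a, a ligase acting on ligands, by 0.38 (edgeR adjusted p = 0.00758), and neither passed in DESeq2 (adjusted p = 0.0665 and 0.0666) or without CBE-KO replicate 2 (edgeR adjusted p = 0.152 and 0.108). Dtx4 also missed the threshold without WT replicate 1 (edgeR adjusted p = 0.102). The other 2, Numb, a Notch inhibitor, and Mib1, a ligase that ligands need for activity, were named after their values were seen, at 0.29 and 0.17. Neither passed in DESeq2 (adjusted p = 0.113 and 0.125) or without CBE-KO replicate 1 (edgeR adjusted p = 0.176 and 0.125), nor did Numb without WT replicate 2 (edgeR adjusted p = 0.0531).

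**Figure D4:**
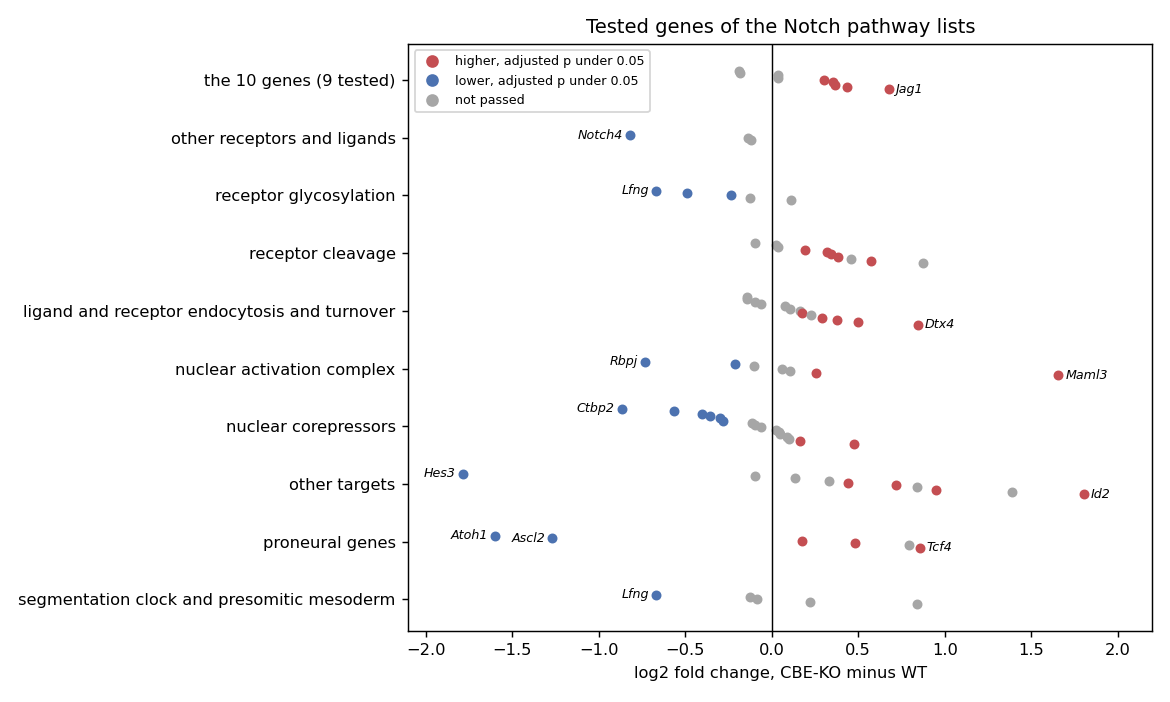
Log2 fold change (x axis, CBE-KO minus WT) of the tested genes of each list, with 1 point per gene, red where higher and blue where lower at an adjusted p under 0.05, and grey where not passed. Receptor cleavage and endocytosis hold red points only among those that passed, receptor glycosylation blue points only, and Rbpj, Notch4 and Ctbp2 lie between -0.87 and -0.73.

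Among 14 genes listed as other targets, 10 were tested, 4 were higher and 1 was lower, so 50.0% were called, near the 43.1% of all tested genes. Being listed here does not show that a gene answers to Notch in these cells. The 4 were Id1, Id2, Id3 and Id4, inhibitors of basic helix-loop-helix factors that are best known as targets of BMP signalling and not of Notch. Id2 measured 20.6 and 24.2 CPM in WT and 74.2 and 82.2 CPM in CBE-KO, giving a log2 fold change of 1.80 ± 0.09 SE (adjusted p = 4.24e-11, edgeR). Id1, Id3 and Id4 rose by 0.44, 0.72 and 0.95, and Id4, with 16 to 43 counts, did not pass in DESeq2 (adjusted p = 0.169) or without WT replicate 1, CBE-KO replicate 1 or CBE-KO replicate 2 (edgeR adjusted p = 0.173, 0.120 and 0.0762). Hes3, a Hes gene of neural progenitors, had 15 and 11 counts in WT, against 5 and 3 in CBE-KO. The log2 fold change of Hes3 was -1.79 ± 0.58 SE (adjusted p = 0.0196, edgeR), and it did not pass in DESeq2 (adjusted p = 0.151) or with any 1 library left out (edgeR adjusted p from 0.0672 to 0.201). The other Hes and Hey genes of this list did not pass or were not tested. Hes6, a positive regulator of neurogenesis, had 189 and 138 counts in WT, against 197 and 191 in CBE-KO (log2 fold change 0.13 ± 0.15 SE, adjusted p = 0.505, edgeR). Nrarp, a feedback inhibitor that Notch itself switches on, had 9 and 10 counts against 16 and 21 (log2 fold change 0.84 ± 0.45 SE, adjusted p = 0.148, edgeR), and Hes7, of the segmentation clock, had 0 and 0 against 1 and 4.

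Proneural genes, which Hes proteins are known to repress, were mostly near the floor. Of 12 genes in the list, 6 were tested, 3 were higher and 2 lower, which is 83.3% called beside 43.1% of all tested genes. The 3 that were higher encode partners of proneural factors, given below, and not proneural factors themselves. The remaining tested gene, which encodes a proneural factor, was higher by a log2 fold change of 0.79 but did not pass (edgeR adjusted p = 0.0745). Neurog1 and Neurog2, classical proneural factors, had at most 10 counts in any library and were not tested. Atoh1, of hair cells and cerebellar granule neurons, had 17 and 17 counts in WT, against 6 and 6 in CBE-KO, with a log2 fold change of -1.60 ± 0.49 SE (adjusted p = 0.0142, edgeR), and missed the threshold in DESeq2 (adjusted p = 0.125) and with any 1 library left out (edgeR adjusted p from 0.0754 to 0.116). Ascl2, known from trophoblast and gut stem cells, went from 8.11 ± 0.744 to 3.33 ± 1.03 CPM (SD, n = 2 each), which is a log2 fold change of -1.27 ± 0.22 SE (adjusted p = 0.000182, edgeR). The 3 that rose were Tcf4 (log2 fold change 0.85 ± 0.07 SE, adjusted p = 8.17e-08, edgeR), Tcf12 and Tcf3, which encode the widely expressed E proteins with which proneural factors pair. Tcf12 and Tcf3, at 0.48 and 0.17, were named after their values were seen, and Tcf3 did not pass without CBE-KO replicate 2 (edgeR adjusted p = 0.0783). The list of the segmentation clock and presomitic mesoderm, where Notch signalling drives oscillations, holds 9 genes besides Dll3, among them Lfng, Hes7 and Nrarp from the lists above. Of the 9, 5 were tested, and the Lfng call given above was the only one. This is 20% called, beside 43.1% of all tested genes called in either direction and 21.5% called lower.

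Markers of cell types that could carry Notch genes are given for both groups. Of the tested markers, 88.9% were called for pluripotent cells, 57.1% for neural progenitors and 70.0% for extraembryonic endoderm. For endothelium it was 71.4%, for paraxial mesoderm 25% and for fibroblasts 50.0% (1 of 2). Over all tested genes 43.1% were called, 21.6% higher and 21.5% lower. Of 10 pluripotency markers, 9 were tested, 6 were lower and 2 (Nanog and Tfcp2l1) higher, and their summed level was 4639 to 4758 CPM in WT and 3569 to 3604 CPM in CBE-KO. Of 10 neural progenitor markers, 7 were tested and 4 (Sox1, Pax6, Msx1 and Lhx2) were higher, at 39.7 to 41.2 and 52.5 to 52.8 CPM, with Fabp7 and Pax3 at 0 in 3 of the 4 libraries. The most abundant, Nes, went the other way, from 13.6 CPM in each WT library to 10.8 and 11.2 CPM in CBE-KO. It did not pass (edgeR adjusted p = 0.0687), and the other 9 came to 26.1 to 27.6 CPM in WT and 41.6 to 41.7 CPM in CBE-KO. Of 10 extraembryonic endoderm markers 6 were higher and 1 (Amn) lower, at 364 to 372 and 394 to 397 CPM. The most abundant, Sparc, did not pass, and the other 9 came to 152 to 163 CPM in WT and 195 to 198 CPM in CBE-KO. Of 10 endothelial markers 7 were tested, 3 (Pecam1, Kdr and Tek) were higher and 2 (Eng and Esam) lower, at 226 to 228 and 245 to 255 CPM, with Emcn at 0 throughout and Cdh5 at 0 to 6 counts. Most of the endothelial sum was Pecam1, and the other 9 came to 57.3 to 62.3 CPM in WT and 54.5 to 55.7 CPM in CBE-KO. Of 10 paraxial mesoderm markers 8 were tested, 1 (Aldh1a2) was higher and 1 (Tcf15) lower, at 249 to 273 and 180 to 199 CPM. Most of that sum was Tcf15, and the other 9 came to 21.3 to 24.9 CPM in WT and 23.9 to 25.1 CPM in CBE-KO. This list shares Tbx6, Msgn1, Mesp1 and Mesp2 with that of the segmentation clock. Of 10 fibroblast markers, 2 were tested and 1 (Col1a1) was higher, at 11.4 to 12.9 and 14.9 to 17.7 CPM, and Dcn, Lum, Postn, Fap and Twist2 were at 0 in all 4 libraries. The markers in parentheses, Nes and Sparc were named after their values were seen. The part of these cell types in the changes of the Notch genes was not tested.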

How the data were processed

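RNA-seq was analysed for 4 of the 10 samples. Capture-C (6 samples) was not analysed here. The deposited values are raw counts per mouse Ensembl gene, 1 library per table, as the values show. The submitters' processing notes name HISAT2 2.1.0, HTSeq 0.9.1, DESeq2 1.18.1, Bowtie2 2.3.1 and the mm10 build, without their roles. The strand setting and annotation release are not given in the sources used here.

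Symbols were matched for 52403 of 52636 identifiers, and positions and promoters came from RefSeq on GRCm38.p6, the assembly also called mm10. Sample titles gave the groups and replicate numbers. Genes passing edgeR's filterByExpr (16005) were tested with edgeR 4.0.16 in R 4.3.3 (TMM, glmQLFit, glmQLFTest, no covariate, two-sided, Benjamini-Hochberg over all tested genes, threshold 0.05). Likeness to Jag1 used log2(CPM + 0.5). The edgeR script was tested on simulated data, where it made more false calls than the nominal share. The simulation changed a far smaller share of genes than was called here, so its share of false calls need not hold for these data. Adjusted p-values near the threshold are to be read with care. The members, lists and tests were chosen with earlier results of these data known. Beyond the 10 genes, those named are the 3 largest changes past the threshold in each list, and all past it among other receptors and ligands and other targets, unless said otherwise, and 2 genes of the lists are not reported here by name. Alternatives were DESeq2 1.42.0, 3 other scalings, 2 other filters, a replicate block, stricter thresholds (0.01, or a log2 fold change of 1 or more in size) and leaving out each library, and robust moderation, which was added after seeing the data.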

Additional observations from a re-analysis of the deposited data

How the results depend on the processing

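Each of the 5 Notch genes that passed stayed higher in each of the 12 alternative fits. Jag2, Hes1 and Notch3 also stayed past the threshold in each, with log2 fold changes of 0.39 to 0.54, 0.35 to 0.47 and 0.25 to 0.41. Notch2 missed it without WT replicate 2 and Jag1 in 3 fits and at an adjusted p under 0.01. Notch members past the threshold numbered 4 or 5 in each fit and 4 at 0.01, and 0 when a log2 fold change of 1 or more in size was also required, where edgeR's unadjusted p was under 0.05 for 5 and DESeq2 passed 4 without that minimum. The sign turned in fits without 1 library for Notch1 (-0.035 to 0.10, lowest without WT replicate 1), Dll1 (-0.39 to 0.058, highest without WT replicate 1) and Dll3 (-0.23 to 0.27, with -0.061 without WT replicate 1 and the lowest without CBE-KO replicate 2). Pathway genes numbered 36, but 20 in DESeq2, 23 at an adjusted p under 0.01 and 5 with the minimum change of 1. Of the 36, 18 kept the call in every alternative fit and none changed sign. All changed genes numbered 6895, but 4577 in DESeq2 and 1383 with the minimum change, and the share of them that was higher went from 50.2% to 67.0% with library totals alone. The cause of these differences between tools and scalings was not tested. With the replicate number as a block, 5 Notch genes, 36 pathway genes and 7027 genes in all passed. The labels do not say that equal replicate numbers mark a shared batch or day, so the numbers were not taken as pairs. Same-numbered libraries had a correlation of 0.035 in their deviations from the group means. Leaving out a library left 1 in its group, assumed to vary like the other group, and gave 5492 to 6420 genes in all, 24 to 33 pathway genes and 4 or 5 Notch genes. Hes5, Hey1, Dll1, Dll3 and Jag1 had 130 counts or fewer in every library, the fewest of the 10 genes, so relative counting error was largest for these.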
